A study of Mus musculus with 8 samples.

Results

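Mouse embryonic stem cells of 3 altered lines, a TRIM71 knockout, a homozygous mutant of the Mbnl1 3'UTR and an Mbnl1 overexpression line, were set together against the wild-type cells. The question was which genes differed from wild type in all 3 lines. The equal-weight mean of the 3 lines was tested against wild type, and a gene was counted as shared when it passed that test (adjusted p under 0.05) and all 6 altered libraries also lay on one side of both wild-type libraries. Of 18055 genes tested, 7299 (40.4%) passed, 3503 (19.4%) had all 6 altered libraries on one side (1772, or 9.81%, above and 1731, or 9.59%, below), and 3151 (17.5%) did both, 1628 of them higher and 1523 lower. When differences among the 3 lines were instead counted as part of the error, 36 genes were called, 14 higher and 22 lower, and these lead the account of single genes. That fit took the 6 altered libraries as independent, so its p-values may be too small as a test across lines.

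All 8 libraries of the series entered the comparison, 2 for each group. Every group was of 129xC57BL/6 background and carried Rosa26Cre-ERT2/BirA-V5, a tamoxifen-inducible Cre recombinase and a tagged biotin ligase at the Rosa26 locus, so wild type refers to Trim71 and Mbnl1 only. To this genotype the knockout added TRIM71-/-, the mutant added 3'UTR(mut)/3'UTR(mut) at Mbnl1, and the overexpression line a stable transfection of MBNL1::T2A::Puromycin, in which a self-cleaving peptide joins MBNL1 to a resistance protein. Cells grew on gelatin in medium with serum and LIF, and total RNA was sequenced on a stranded protocol. Whether libraries of the same group came from separate cultures, and whether a line is 1 clone or several, is not stated in the labels. The p-values therefore measure only the spread between these libraries, and the effect of a genotype cannot be told apart from that of deriving its line.

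TRIM71 is an RNA-binding protein of the early embryo that represses the mRNAs it binds, and Mbnl1 mRNA, which carries a TRIM71 site in its 3' untranslated region, is the target named in the title of the series. MBNL1 is a splicing regulator that rises as stem cells differentiate. Embryonic stem cells in serum and LIF move between a naive state, held by LIF signalling through STAT3 and by factors such as Nanog, Esrrb and the Klf genes, and a formative state in which Otx2, Pou3f1 and the de novo DNA methyltransferases come up ahead of differentiation.

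Totals were 75056306 to 86508533 counts per library, and levels are given as CPM, counts scaled to a common library size, after TMM scaling. A count of 3 corresponded to 0.0347 to 0.04 CPM. Ribosomal RNA-like loci made up 4.821% of wild-type replicate 1, 2.885% of wild-type replicate 2 and as little as 2.239% of an altered library. Trim71 mRNA stood at 629.9 and 628 CPM in wild-type cells, 101 and 105 in knockout, 695 and 694 in mutant and 644 and 667 in overexpression cells, so it was low in the knockout alone and is not a shared gene. Mbnl1 mRNA stood at 25.9 and 26.1 CPM in wild-type cells, 48.8 and 50.9 in knockout, 28.6 and 27.4 in mutant and 193 and 195 in overexpression cells. It was a shared gene (mean change 1.31 ± 0.04 (SE) on the log2 scale, adjusted p = 2.97e-12), although the mutant by itself was not called (adjusted p = 0.0935). Reads of the transgene cannot be told apart from those of the endogenous gene in these counts. The 11 stem cell markers were detected in every group and summed to 5390 to 5480 CPM in wild type and 5960 to 6330 CPM in the altered libraries. The 15 fibroblast or feeder markers summed to 640.0 to 690.0 CPM in wild type and 482 to 695 CPM in the altered libraries, with 3 of them at or under 3 counts in every library, and the 6 markers of two-cell-like cells summed to at most 0.0579 CPM. In bulk RNA, fewer cells of a type and less RNA per cell cannot be told apart.

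Between lines the size of a shared change varied widely. The genes with all 6 libraries above wild type had median log2 changes of 0.323 (knockout), 0.19 (mutant) and 0.501 (overexpression), and those below had medians of -0.42, -0.245 and -0.543. The mutant had the smallest of the 3 changes in 1067 of 1628 higher genes and 962 of 1523 lower genes. The 3 comparisons with wild type share the wild-type libraries. Of all genes tested, the knockout called 44.8%, the mutant 15.5% and overexpression 54.8%, and 585 higher and 490 lower shared genes were called in each line separately. The median fold was 1.27 among higher genes and 1.35 among lower genes. Of the 3151, 594 had a largest line change under 2 times the smallest, and the median ratio of largest to smallest was 3.21.

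**Figure D1:**
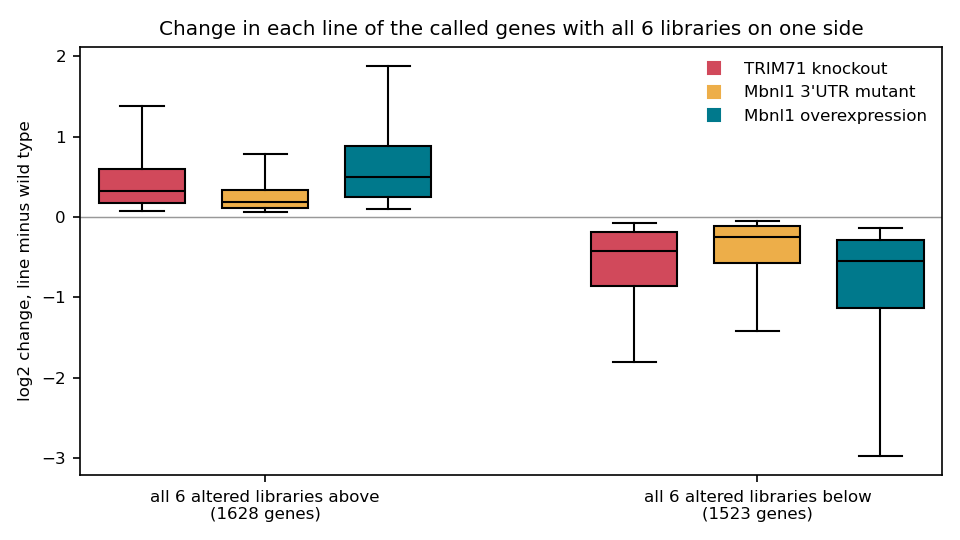
Log2 change minus wild type in each altered line (vertical axis) for the 1628 called genes with all 6 altered libraries above wild type and the 1523 with all 6 below. The line in a box is the median, the box the span from the lower to the upper quartile and the whiskers the 5th to 95th percentile. The mutant boxes lie nearest 0, and the overexpression boxes farthest from it.

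An F test of the 3 altered lines against each other, in which no wild-type library enters the contrast, called 12539 of the genes tested (69.4%) and 2456 of the 3151 shared genes (77.9%). The remaining 695, 290 of them higher and 405 lower, were not called different between lines, which does not show that they were equal. Overexpression against the mutant called 52% of all genes and 64.7% of the shared ones, with overexpression farther from wild type in 1054 higher and 871 lower ones and the mutant farther in 69 and 44. The knockout against overexpression called 54.8% and 60.8%, and the knockout against the mutant 45.5% of both.

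The 36 genes called with all 6 altered libraries treated as a single group are those whose change was large beside the spread of libraries within and between lines. Bmp4, Socs3, Tet2 and Zfp57 rose, and Otx2, Pim2, Wnt3 and several chemokine and interferon-inducible genes fell. All 36 were also shared genes, and the F test among lines called all but 21 of them, so several differ clearly between lines. This fit counts differences among lines as part of the error, with 6 residual degrees of freedom, and 1995 genes had an unadjusted p under 0.05 in it. It takes all 6 altered libraries as independent, although libraries of the same line were more alike than libraries of different lines. Its error therefore mixes the spread within lines with the differences between them. As a test across lines, its p-values may be too small. In the 1-group fit, adjusted p over the 36 ran from 0.000963 to 0.049. It was 0.047 for Tet2 and Otx2, 0.0444 for Zfp57 and 0.0218 for Pim2, Plac8 and Lncenc1. Unless said otherwise, the changes and adjusted p given below for single genes are of the main fit of 4 groups. Of the 36, 7 are also named by the rule used for the other genes below, and the rest were chosen for this result. None of the 14 higher genes was under 1 CPM in wild type. Of the 22 lower genes, 14 were under 1 CPM in wild type. Several of these 14, among them Ccl20, Ifi209 and Kynu, passed the low-count filter only through the wild-type libraries. Their fall is in part fixed by that filter.

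Several of the 14 higher genes belong to signalling and to the naive state. Bmp4, a ligand that together with LIF holds serum-grown stem cells undifferentiated, stood at 103 and 95.2 CPM in wild-type cells, 150.3 and 152 in knockout, 164 and 147 in mutant and 158 and 157 in overexpression cells. Its mean change was 0.65 ± 0.04 (SE) on the log2 scale, adjusted p = 1.6e-08, and adjusted p = 0.0142 with the altered libraries as 1 group. It had log2 changes of 0.61 (knockout), 0.66 (mutant) and 0.67 (overexpression). Socs3, the feedback inhibitor of LIF signalling through STAT3, stood at 131 and 131 CPM in wild-type cells, 173 and 175 in knockout, 169.6 and 165 in mutant and 176 and 171 in overexpression cells. The 6 altered libraries lay within a narrow band clear of both wild-type libraries. The change was 0.39 ± 0.03 (SE) on the log2 scale, adjusted p = 4.52e-08. With the altered libraries as 1 group, the adjusted p of Socs3 was 0.0345. Tet2, an enzyme that oxidizes 5-methylcytosine, stood at 225 and 221 CPM in wild-type cells, 407 and 407 in knockout, 342 and 318 in mutant and 360.3 and 360.3 in overexpression cells, highest in the knockout. It rose by 0.71 ± 0.03 (SE) on the log2 scale, adjusted p = 3.02e-10, and the 3 lines differed (adjusted p = 1.11e-05). Zfp57, a zinc finger protein that keeps methylation at imprinted loci, stood at 296 and 329 CPM in wild-type cells, 424 and 423 in knockout, 429 and 421 in mutant and 465 and 451 in overexpression cells and rose by 0.48 ± 0.04 (SE) on the log2 scale, adjusted p = 6.65e-08.

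Others of the 14 higher genes carry receptor and metabolic functions. F2rl1, a protease-activated receptor, stood at 70.5 and 68.2 CPM in wild-type cells, 103 and 106 in knockout, 109.5 and 103 in mutant and 113 and 109 in overexpression cells. It rose by 0.63 ± 0.03 (SE) on the log2 scale, with log2 changes of 0.59 (knockout), 0.62 (mutant) and 0.68 (overexpression). Fah, the last enzyme of tyrosine breakdown, stood at 18.3 and 18.5 CPM in wild-type cells, 26.4 and 27.9 in knockout, 25.4 and 24.9 in mutant and 26.9 and 27.5 in overexpression cells and rose by 0.53 ± 0.04 (SE). As the rule for shared genes requires, the lowest altered library of each of these genes was above the higher wild-type library. Tenm4, a teneurin of the cell surface, rose by 0.48 ± 0.04 (SE), and Ckap4, a membrane protein of the endoplasmic reticulum, by 0.40 ± 0.03 (SE). Higher as well were Aff1 (0.62), Dcbld1 (0.63), Lrrc34 (0.54), Phf11d (0.50) and 2310043M15Rik (0.78), as log2 changes of the mean.

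**Figure D2:**
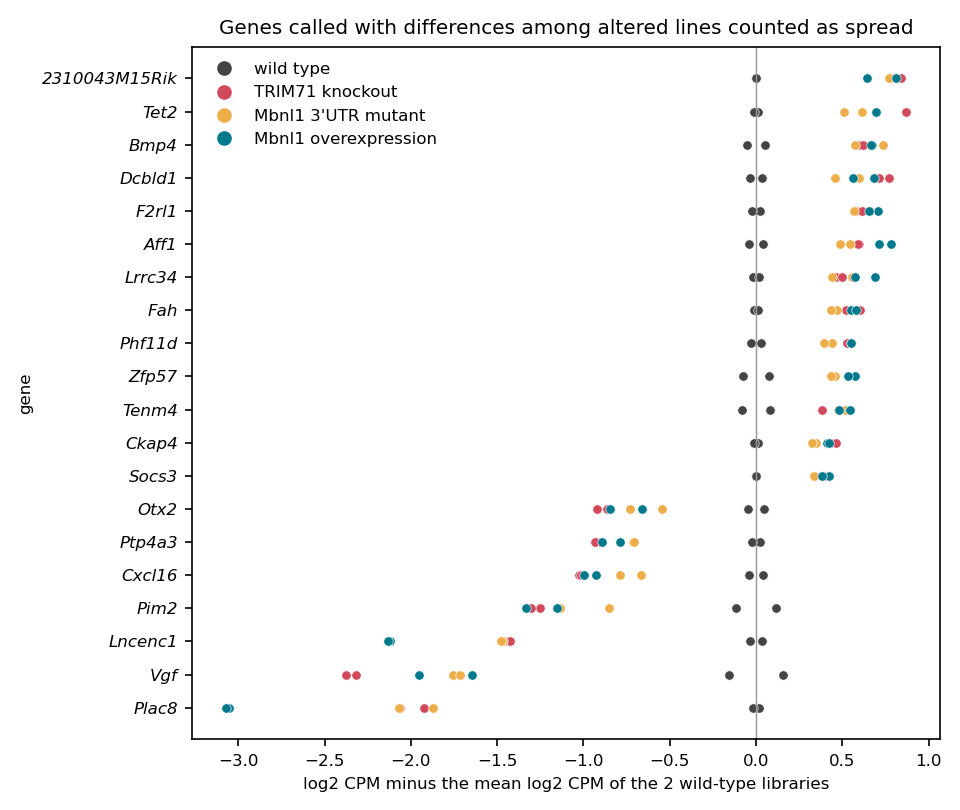
Log2 CPM of each library minus the mean of the 2 wild-type libraries (horizontal axis) for 20 of the 36 genes, each with at least 1 CPM in wild type. Each point is a library, coloured by group. All altered points lie on one side of both wild-type points, as in every shared gene. For Bmp4 the knockout and overexpression points lie between those of the mutant.

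Among the 22 lower genes were Otx2 and Pim2. Otx2, a transcription factor that drives the move from the naive to the formative state, stood at 20.8 and 19.5 CPM in wild-type cells, 10.6 and 11.1 in knockout, 13.8 and 12.1 in mutant and 12.8 and 11.2 in overexpression cells. It fell by 0.76 ± 0.06 (SE) on the log2 scale, the lines differed (adjusted p = 0.0227), and some of its reads may come from an overlapping gene on the same strand. Pim2, a kinase that supports survival, stood at 14.4 and 12.2 CPM in wild-type cells, 5.57 and 5.39 in knockout, 6.06 and 7.37 in mutant and 5.26 and 5.96 in overexpression cells. Both wild-type libraries were well above the 6 altered ones, for a change of -1.17 ± 0.08 (SE) on the log2 scale, adjusted p = 6.18e-08, and the F test among lines just missed the threshold (adjusted p = 0.0519), while the knockout against the mutant was called (adjusted p = 0.044). Lncenc1, a long noncoding RNA of naive stem cells, stood at 23.5 and 22.3 CPM in wild-type cells, 8.35 and 8.54 in knockout, 8.29 and 8.21 in mutant and 5.28 and 5.23 in overexpression cells. It changed by -1.68 ± 0.04 (SE) on the log2 scale, adjusted p = 2.97e-12, was lowest in both overexpression libraries and differed among lines (adjusted p = 4.03e-07). Plac8, a small cysteine-rich protein, stood at 9.01 and 8.77 CPM in wild-type cells, 2.34 and 2.12 in knockout, 2.12 and 2.42 in mutant and 1.07 and 1.06 in overexpression cells and changed by -2.34 ± 0.07 (SE) on the log2 scale, adjusted p = 8.19e-12. It was lowest in overexpression too, and the lines differed (adjusted p = 4.47e-06). Ptp4a3, a phosphatase, changed by -0.82 ± 0.05 (SE), with log2 changes of -0.92 (knockout), -0.71 (mutant) and -0.84 (overexpression).

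Chemokine and interferon-inducible genes were among the lower ones at very low levels. Ccl20, a chemokine, had 19 and 13 counts in wild-type cells, 3 and 0 in knockout, 1 and 0 in mutant and 1 and 1 in overexpression cells. Ifi209, an interferon-inducible gene, had 30 and 20 counts in wild-type cells, 3 and 0 in knockout, 2 and 3 in mutant and 2 and 1 in overexpression cells. Gbp2, an interferon-inducible GTPase, had 61 and 63 counts in wild-type cells, 7 and 2 in knockout, 7 and 20 in mutant and 4 and 5 in overexpression cells. That every altered library lay below both wild-type libraries follows from the rule for shared genes. The counts of Ccl20 and Ifi209 are too low for a dependable fold, and both genes were tested only because of their wild-type counts. Gbp2b, the paralog of Gbp2 next to it on chromosome 3, was called as well, so reads of the 2 may have been assigned to either. Cxcl16, another chemokine, was better covered, at 5.42 and 5.13 CPM in wild-type cells, 2.59 and 2.61 in knockout, 3.06 and 3.32 in mutant and 2.78 and 2.65 in overexpression cells, and changed by -0.90 ± 0.07 (SE) on the log2 scale, adjusted p = 1.64e-07. The interferon response list as a whole did not follow. Of its 25 genes, 16 were tested, 6 were called higher and 3 lower, and only Stat2, higher, and Tap1, lower, were shared. Among all genes tested, 20.6% were called higher and 19.9% lower.

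The Wnt ligands Wnt3 and Wnt4 were also among the 22, whereas Wnt3a was shared and higher. Wnt3, a ligand needed for gastrulation, had 72 and 72 counts in wild-type cells, 16 and 19 in knockout, 18 and 15 in mutant and 13 and 15 in overexpression cells. Its change was -2.31 ± 0.19 (SE) on the log2 scale, adjusted p = 2.01e-07, and the lines were not called different (adjusted p = 0.575). Wnt4 had 73 and 64 counts in wild-type cells, 22 and 16 in knockout, 17 and 26 in mutant and 35 and 16 in overexpression cells. Both ligands were under 1 CPM in every library. Vgf, the precursor of secreted neuropeptides, stood at 1.36 and 1.68 CPM in wild-type cells, 0.303 and 0.291 in knockout, 0.447 and 0.461 in mutant and 0.39 and 0.483 in overexpression cells. All 6 altered libraries were at less than a CPM. Sel1l3, Kynu, Spon1, Chdh, Mal, Cftr, Jazf1 and 2310007B03Rik also belong to the 22, all under 1 CPM in wild type.

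The largest mean rises among shared genes were smallest in the mutant for 11 of the 12 genes this size picks. These 12, whose log2 CPM averaged 1 or more, were B3gnt3, Kbtbd11, Vax2, Islr2, Tgm2, Hydin, Arhgap45, Gpa33, Kcnab3, Fignl2, Itpka and Adgrg6. B3gnt3, a glycosyltransferase that extends glycan chains, stood at 1.98 and 2.03 CPM in wild-type cells, 12.6 and 12.9 in knockout, 3.7 and 3.67 in mutant and 25.99 and 24.8 in overexpression cells. Its mean change was 2.40 ± 0.07 (SE) on the log2 scale, adjusted p = 5.02e-12, and the mutant moved least. Kbtbd11 stood at 3.51 and 3.37 CPM in wild-type cells, 28.6 and 26.7 in knockout, 4.002 and 3.92 in mutant and 26.1 and 27.1 in overexpression cells, and the mutant by itself was not called (adjusted p = 0.123). Gpa33, an epithelial surface antigen, stood at 14.3 and 14.7 CPM in wild-type cells, 71.2 and 72.9 in knockout, 26.2 and 25.7 in mutant and 27.1 and 27.4 in overexpression cells, highest in the knockout. Tgm2, a protein crosslinking enzyme, stood at 15.3 and 16.5 CPM in wild-type cells, 70.6 and 69.2 in knockout, 18.9 and 17.7 in mutant and 117 and 92.3 in overexpression cells and rose by 1.69 ± 0.11 (SE) on the log2 scale, adjusted p = 9.03e-05. As for Kbtbd11, the mutant by itself was not called for Tgm2 (adjusted p = 0.392) or Vax2 (adjusted p = 0.101). For all 12, the 3 lines were called different from each other.

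A further 12 genes were those whose smallest line change was the largest among shared rises. Fignl2 stood at 17.4 and 18.7 CPM in wild-type cells, 38.3 and 37.9 in knockout, 38.6 and 35.1 in mutant and 69.3 and 66.7 in overexpression cells, Nkx6-3, a homeobox factor, at 23.4 and 24.2 CPM in wild-type cells, 67.5 and 67.05 in knockout, 48.9 and 46.5 in mutant and 44.8 and 46.5 in overexpression cells, and Sept1, a septin of the cytoskeleton, at 37.2 and 38.1 CPM in wild-type cells, 71.6 and 71.9 in knockout, 79.98 and 74.3 in mutant and 141 and 135 in overexpression cells. All 3 lines were well clear of wild type in each of these genes, which is how they were chosen. Their mean changes were 1.34 ± 0.05 (SE), 1.15 ± 0.04 (SE) and 1.28 ± 0.04 (SE). Islr2, whose reads may be shared with an overlapping gene, changed by 1.90 ± 0.06 (SE), Osbpl10, an oxysterol-binding protein, by 1.22 ± 0.05 (SE), Alpk3, a kinase, by 1.17 ± 0.05 (SE) and Nos3, the endothelial nitric oxide synthase, by 1.28 ± 0.08 (SE). Rhov, Pou2f3, B3gnt3 and Gpa33 were also in this set. A change of 1.5-fold or more in each line was found in 124 higher and 265 lower shared genes, and 287 of these had a mean under 1 CPM.

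Of the 12 largest mean falls chosen in the same way, 10 were largest in overexpression. Stmn2, a neuronal microtubule regulator, stood at 50.97 and 54.04 CPM in wild-type cells, 49.9 and 48.6 in knockout, 4.15 and 3.904 in mutant and 5.68 and 6.47 in overexpression cells. Its knockout libraries lay just under wild type and were not called by themselves (adjusted p = 0.161), whereas the mutant and overexpression were far lower, so its mean change of -2.30 ± 0.04 (SE) does not describe 3 like lines. Sfmbt2, a Polycomb protein gene that hosts a microRNA cluster, stood at 62.6 and 56.8 CPM in wild-type cells, 28.7 and 28.2 in knockout, 38.3 and 38.5 in mutant and 7.96 and 8.82 in overexpression cells. Zfhx3, a large homeobox and zinc finger factor, stood at 16.96 and 14.2 CPM in wild-type cells, 3.73 and 3.15 in knockout, 9.79 and 9.77 in mutant and 3.54 and 4.31 in overexpression cells. Both genes were lowest in a line other than the mutant. Lpar4, a receptor for lysophosphatidic acid, fell by 1.65 ± 0.07 (SE), Dtna by 1.46 ± 0.07 (SE), Fndc3c1 by 1.68 ± 0.09 (SE), Vgll3 by 1.42 ± 0.09 (SE) and Kcnj3, a potassium channel subunit, by 1.40 ± 0.07 (SE) on the log2 scale. In these 5 the overexpression change was the largest of the 3.

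Falls that were strong in every line included Gsn, Piwil4, Pdpn and Lfng. Gsn, the actin-severing protein gelsolin, stood at 7.92 and 7.74 CPM in wild-type cells, 3.76 and 3.85 in knockout, 3.36 and 5.09 in mutant and 3.58 and 3.36 in overexpression cells. It changed by -1.03 ± 0.11 (SE) on the log2 scale, adjusted p = 2.5e-05, and the lines were not called different (adjusted p = 0.276). Piwil4, of the Piwi family that binds piRNAs, stood at 7.03 and 7.28 CPM in wild-type cells, 2.85 and 3.02 in knockout, 3.81 and 3.92 in mutant and 2.09 and 1.81 in overexpression cells. Pdpn, the membrane glycoprotein podoplanin, stood at 11.2 and 10.4 CPM in wild-type cells, 4.24 and 4.67 in knockout, 5.96 and 6.001 in mutant and 3 and 2.69 in overexpression cells. The mutant was the least changed in both. Lfng, which modifies Notch receptors, changed by -1.18 ± 0.09 (SE), Hs6st2, a heparan sulfate sulfotransferase, by -1.49 ± 0.07 (SE), and Zic2 and Zic5, neighbouring zinc finger genes, by -1.53 ± 0.09 (SE) and -1.01 ± 0.08 (SE).

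Naive pluripotency genes were mostly higher, and formative genes mostly lower. These and the other gene lists were drawn up with earlier results of these data known, so their counts are a description only. Of 25 naive genes, all tested, 17 were called higher and 4 lower, and 14 were shared and higher against 1, Fbxo15, shared and lower. The median log2 change over the 25 was 0.235, against -0.00653 over all genes tested. Among all genes tested, 20.6% were called higher, 19.9% were called lower and 9.02% were shared and higher. Klf4 stood at 125 and 132 CPM in wild-type cells, 220.4 and 221 in knockout, 192 and 177 in mutant and 301 and 291 in overexpression cells, rising by 0.84 ± 0.04 (SE) on the log2 scale, adjusted p = 2.56e-10. Klf5 stood at 122 and 131 CPM in wild-type cells, 226 and 226 in knockout, 227 and 190.0 in mutant and 185 and 169.5 in overexpression cells. Nanog stood at 318 and 307 CPM in wild-type cells, 604 and 594 in knockout, 344 and 332 in mutant and 373 and 381 in overexpression cells. For Nanog the knockout was far above the other 2 lines, while Klf4 was highest in overexpression. Lifr, the LIF receptor subunit, rose by 0.43 ± 0.03 (SE), and Prdm14 by 0.41 ± 0.04 (SE), with smaller rises of 0.23 ± 0.03 (SE) in Esrrb, 0.24 ± 0.03 (SE) in Zfp42 and 0.27 ± 0.03 (SE) in Fgf4. Klf2 stood at 199.6 and 188 CPM in wild-type cells, 196 and 198 in knockout, 191 and 194 in mutant and 95.2 and 96.3 in overexpression cells, low in overexpression only. Pou5f1, shared by the naive and formative states, was not called (0.03, adjusted p = 0.419).

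Of 18 formative and primed genes tested, 12 were called lower and 4 higher, and 11 were shared and lower against 3, Etv5, Foxd3 and Tcf15, shared and higher. The median was -0.562. Among all genes tested, 19.9% were called lower and 8.44% were shared and lower. Pou3f1, a POU factor of this state, stood at 10.3 and 9.49 CPM in wild-type cells, 4.22 and 4.18 in knockout, 7.08 and 7.31 in mutant and 7.03 and 7.195 in overexpression cells and fell by 0.72 ± 0.06 (SE) on the log2 scale. Dnmt3a, a de novo DNA methyltransferase, stood at 106 and 115 CPM in wild-type cells, 50.1 and 49.9 in knockout, 102 and 104 in mutant and 87.95 and 86.9 in overexpression cells, lowest in the knockout. Zic2 stood at 4.65 and 5.45 CPM in wild-type cells, 2.63 and 2.37 in knockout, 2.87 and 3.18 in mutant and 0.725 and 0.679 in overexpression cells, lowest in overexpression. Fgf5, the standard marker of the primed epiblast, was near 1 CPM or under in every library and changed by -1.39 ± 0.21 (SE). Foxd3 rose by 0.44 ± 0.05 (SE) and Tcf15 by 0.65 ± 0.04 (SE), both least in the knockout. The general pluripotency list did not move one way, with a median of -0.0517. Of its 20 genes, 6 were called higher and 10 lower, beside 20.6% and 19.9% of all genes tested.

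**Figure D3:**
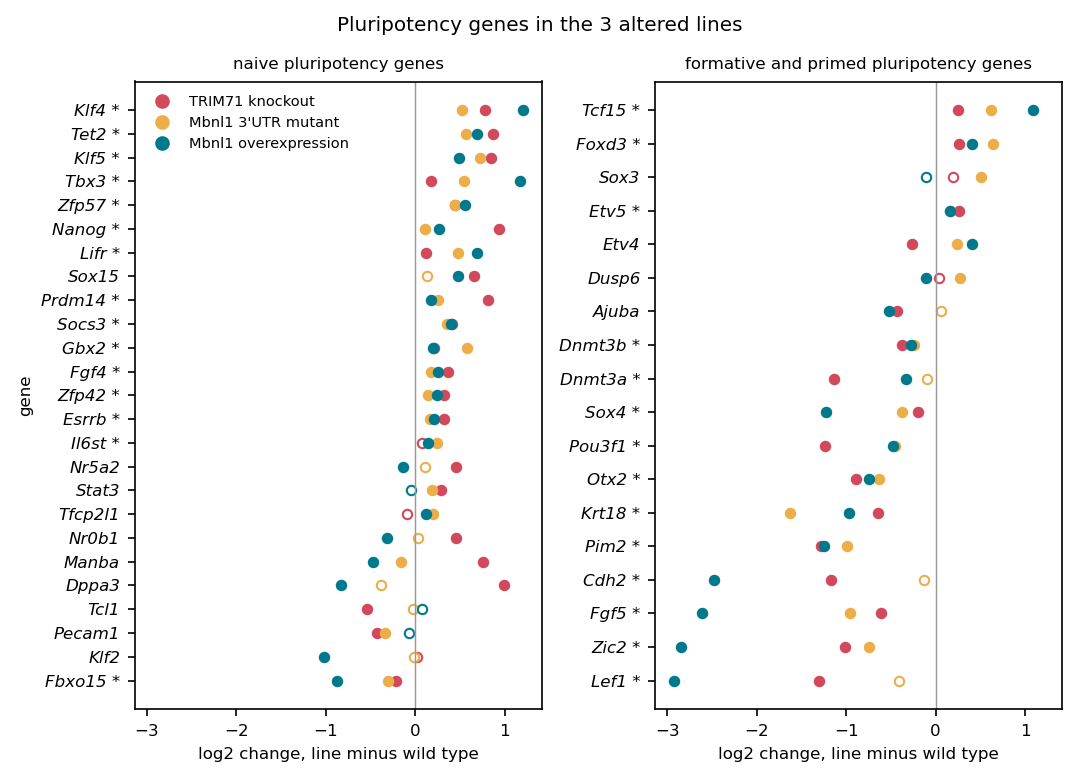
Log2 change minus wild type (horizontal axis) of each tested naive gene (left) and formative or primed gene (right) in the 3 lines. Filled points were called in that line at an adjusted p under 0.05, open points were not, and a star marks genes with all 6 altered libraries on one side that also passed the test of the mean. Most naive points lie right of 0 and most formative points left of it.

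Genes of the DNA methylation machinery changed in both directions. Of 12 tested, 4 were called higher and 4 lower, beside 20.6% and 19.9% of all genes tested. Shared and lower were Dnmt3a (-0.52), Dnmt3b (-0.30), Dnmt3l (-1.37) and Mbd3 (-0.16), and shared and higher were Tet2 (0.71) and Uhrf1 (0.23), which brings the maintenance methyltransferase to replicated DNA. Dnmt1, that methyltransferase (0.11), and Tdg, a DNA glycosylase (0.16), were called higher without being shared. Dnmt3l, the catalytically inactive partner of the de novo enzymes, stood at 169.7 and 146 CPM in wild-type cells, 41.4 and 42.1 in knockout, 131 and 142 in mutant and 37.8 and 42.4 in overexpression cells. The mutant libraries lay just under wild type and the other 2 lines far below. Of 21 germline genes that DNA methylation is known to silence, 10 were called higher and 3 lower, beside 20.6% and 19.9% of all genes. Shared were 2 in each direction, Piwil2 and Taf7l higher and Sycp1 and Sycp3 lower, beside 9.02% and 8.44% of all genes tested.

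Targets of p53, the stress-activated tumour suppressor, were lower as a group. Of 32 tested, 23 were called lower and 4 higher, while 19.9% of all genes tested were called lower and 20.6% higher. Shared were 20 lower, where all genes tested gave 8.44%, and 2 higher, Ddb2 and Gdf15, and the median was -0.323. Plk2 stood at 60.2 and 57.5 CPM in wild-type cells, 24.2 and 24.1 in knockout, 39.6 and 38.1 in mutant and 28.8 and 29.5 in overexpression cells, Perp at 82.5 and 75.9 CPM in wild-type cells, 38.8 and 37.9 in knockout, 58.1 and 57.1 in mutant and 36.9 and 39.8 in overexpression cells and Mdm2, the ubiquitin ligase that degrades p53, at 149 and 152 CPM in wild-type cells, 101 and 102 in knockout, 130.2 and 126 in mutant and 116 and 117 in overexpression cells. Their changes were -0.97 ± 0.03 (SE) on the log2 scale, adjusted p = 2.17e-11, -0.85 ± 0.04 (SE) on the log2 scale, adjusted p = 2.77e-10 and -0.39 ± 0.03 (SE) on the log2 scale, adjusted p = 3.4e-08. In each the mutant lay between wild type and the other 2 lines. Ccng1 changed by -0.45 ± 0.03 (SE), and the pro-apoptotic genes Pmaip1, Bbc3 and Bax, which overlaps another gene on the same strand, by -0.78 ± 0.07 (SE), -0.36 ± 0.04 (SE) and -0.13 ± 0.03 (SE). Cdkn1a, the best known p53 target, was called lower (-0.31), but its libraries overlapped, at 10.98 and 11.4 CPM in wild-type cells, 8.74 and 8.85 in knockout, 7.08 and 8.87 in mutant and 11.1 and 10.1 in overexpression cells. Trp53 itself was not called (0.05, adjusted p = 0.153).

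Genes of the integrated stress response, in which the factor ATF4 raises amino acid synthesis and transport, were higher. Of 27 tested in the list of ATF4 and unfolded protein response genes, 17 were called higher, against 20.6% of all genes tested, and 2 lower. Of the 27, 11 were shared and higher, against 9.02% of all genes tested, and Sesn2, also a p53 target, was shared and lower. The median was 0.19. Atf4 stood at 311 and 331 CPM in wild-type cells, 406 and 408 in knockout, 412 and 398 in mutant and 452 and 458 in overexpression cells and rose by 0.39 ± 0.03 (SE) on the log2 scale, adjusted p = 8.06e-08. Chac1, which degrades glutathione, stood at 16.3 and 17.5 CPM in wild-type cells, 21.4 and 23.6 in knockout, 23.9 and 23.3 in mutant and 36.1 and 37.1 in overexpression cells. Asns, asparagine synthetase, rose by 0.35 ± 0.03 (SE), and Slc7a5, a transporter of large amino acids, by 0.31 ± 0.03 (SE). Xbp1, a factor of the unfolded protein response, rose by 0.55 ± 0.03 (SE), mainly in the knockout, where it was at 102.2 and 100.5 CPM.

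Cytoskeletal and translation genes were mostly lower. Of 27 tested genes that respond to SRF, YAP or actin, 19 were called lower, against 19.9% of all genes tested, and 1, Tagln2, higher. Of the 27, 9 were shared and lower, against 8.44% of all genes tested, with a median of -0.297. Ccn2, a secreted YAP target, stood at 67.6 and 63.2 CPM in wild-type cells, 26.7 and 26.2 in knockout, 51.7 and 53.6 in mutant and 16.4 and 17.4 in overexpression cells, and Ccn1 changed by -0.78 ± 0.05 (SE). Krt18 and Krt8, keratins that are also in the trophoblast list, changed by -1.08 ± 0.08 (SE) and -0.37 ± 0.05 (SE). Tagln, an actin-binding protein of smooth muscle, was called lower but not shared, at 9.17 and 10.6 CPM in wild-type cells, 12.5 and 12.8 in knockout, 1.62 and 1.83 in mutant and 1.61 and 1.81 in overexpression cells. Of 50 cytosolic ribosomal protein genes, 32 were called lower, again beside 19.9% of all genes tested, and 2 higher, with a median of -0.0991. Overexpression had a median of -0.237 in this list, the mutant -0.0499 and the knockout 0.00114. Of the 50, 10 were shared and lower, against 8.44% of all genes tested.

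In signalling lists the direction depended on the gene. Of 18 tested TGF-beta, Nodal and BMP genes, 7 were called in each direction, beside 20.6% of all genes tested higher and 19.9% lower. Bmp4, Id1, a BMP target, Inhbb, an activin subunit, and Smad7 were shared and higher, and Nodal, Gdf3 and Skil were among those shared and lower. Inhbb stood at 149 and 165 CPM in wild-type cells, 343 and 350.5 in knockout, 216 and 202 in mutant and 305 and 292 in overexpression cells, rising by 0.83 ± 0.04 (SE) on the log2 scale, adjusted p = 7.81e-10, and Id1 rose by 0.27 ± 0.03 (SE). Nodal stood at 77.7 and 73.6 CPM in wild-type cells, 37.1 and 38.3 in knockout, 66.3 and 67.95 in mutant and 51.7 and 51.7 in overexpression cells, lowest in the knockout. Of 18 tested Wnt genes, 8 were called lower and 4 higher, beside the same 19.9% and 20.6%. Wnt3, Wnt8a, T and Lef1 were shared and lower, while Notum, a secreted Wnt inhibitor, stood at 12.5 and 12.8 CPM in wild-type cells, 22.5 and 22.5 in knockout, 17 and 18.3 in mutant and 16.3 and 19.3 in overexpression cells and Wnt3a was shared and higher as well. Of 22 mitosis genes, 9 were called higher and 1 lower, and of 25 cholesterol synthesis genes 11 were called higher, but only 5 and 4 were shared. The shares called in either direction, 45.5% and 44%, lie near the 40.4% of all genes tested. The calls lay mostly on the higher side, with 0 cholesterol synthesis genes called lower by edgeR or DESeq2. Among all genes tested, 20.6% were called higher, 19.9% lower, and 9.02% were shared and higher.

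**Figure D4:**
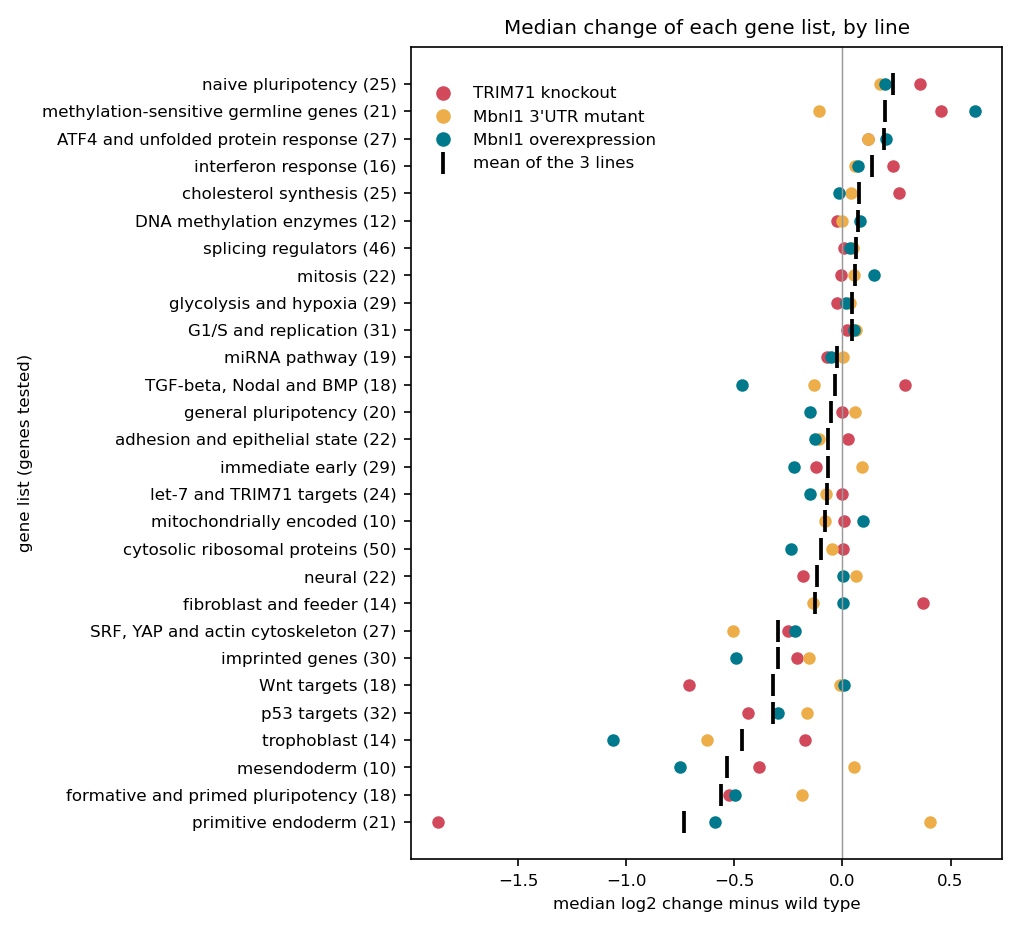
Median log2 change minus wild type of each gene list (horizontal axis) in the knockout, the mutant and overexpression, with the black bar for the mean of the lines per gene. The number of genes tested is in brackets, and lists under 10 are left out. The naive list is right of 0 and the formative and p53 lists are left of it in all 3 lines, whereas the primitive endoderm, TGF-beta and germline lists lie on both sides of 0.

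A mean over 3 lines can hide opposite changes, and 2238 genes called in it had lines of both signs. Primitive endoderm genes were such a case. Of 21 tested, 10 were called lower and 4 higher, beside 19.9% and 20.6% of all genes tested, and none was shared. The medians were -1.87 (knockout), 0.406 (mutant) and -0.589 (overexpression). Gata4, a lineage factor, stood at 7.99 and 7.97 CPM in wild-type cells, 0.652 and 0.765 in knockout, 11.2 and 12.97 in mutant and 5.35 and 4.52 in overexpression cells, and Gata6 at 3.56 and 4.19 CPM in wild-type cells, 0.384 and 0.389 in knockout, 6.06 and 6.68 in mutant and 2.16 and 2.25 in overexpression cells. The 17 primitive endoderm markers summed to 1440 to 1490 CPM in wild type and had means of 1270 CPM in the knockout, 1980 CPM in the mutant and 1550 CPM in overexpression. Foxa2, an endoderm factor, stood at 4.26 and 2.94 CPM in wild-type cells, 17.8 and 18.03 in knockout, 1.55 and 1.72 in mutant and 0.636 and 0.576 in overexpression cells, high in the knockout and low in the other 2 lines. Itpr2, a calcium release channel, stood at 5.64 and 4.67 CPM in wild-type cells, 33.4 and 32.7 in knockout, 1.72 and 1.75 in mutant and 0.535 and 0.633 in overexpression cells, and Igf2, an imprinted growth factor that overlaps another gene, at 17.3 and 13.9 CPM in wild-type cells, 46.7 and 44.6 in knockout, 10.4 and 10.8 in mutant and 2.26 and 2.37 in overexpression cells. The called mean falls of Foxa2, Itpr2 and Igf2 thus summarise 2 lines only. With the altered libraries as 1 group the 3 means turned positive and none was called (adjusted p = 0.801, 0.769 and 0.918).

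MicroRNA genes were the class most often shared and lower. Of 189 tested, 79 were called lower and 0 higher by edgeR, 41.8% of the class against 40.4% of all genes in either direction and 19.9% of all genes lower. At an unadjusted p under 0.05 the counts were 85 and 0, and DESeq2 called 62 and 0. Of the 79, 47 had all 6 altered libraries below wild type. That count was 27 without overexpression, 19 without chromosome 2, which holds Sfmbt2, 5 among genes with at least 1 CPM in 2 libraries, and 0 with the altered libraries as 1 group. Of the 492 called genes that were at least 2-fold lower, 71 were microRNA genes. Nearly all of the 47 lay in 2 places. Intronic sequence of Sfmbt2, called the Sfmbt2 intron below, held 28 of them among 39 tested. The whole Sfmbt2 gene spans 10370510 to 10595253 on the plus strand of chromosome 2 (mm10). The imprinted region from Meg3 to Mirg (chromosome 12, 109541001 to 109749460, plus strand) held 14 among 38. The cluster from miR-106a to miR-363 on chromosome X held 2 of 4, Mir18b and Mir363. Of 108 tested elsewhere 5 were called and 3 were shared, Mir301, Gm27529 and Mir1191.

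Mature sequences are shown for shared genes of the chromosome 12 and X clusters that had one in the RefSeq table (GRCm38.p6), which matched 18 of the 47 genes. They are chosen because seeds recur among the chromosome 12 genes and because the X cluster is a relative of the miR-17 to miR-92 cluster. Capitals mark the seed, bases 2 to 8.
mmu-miR-3070-5p: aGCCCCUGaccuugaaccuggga
mmu-miR-3070-3p: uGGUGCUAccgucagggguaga
mmu-miR-3070-2-3p: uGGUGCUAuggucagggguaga
mmu-miR-453: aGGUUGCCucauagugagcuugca
mmu-miR-496a-5p: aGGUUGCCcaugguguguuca
mmu-miR-18b-5p: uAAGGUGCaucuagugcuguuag
mmu-miR-363-3p: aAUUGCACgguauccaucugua
The first is listed for both Mir3070a and Mir3070b, whose 3p forms share a seed, and miR-453 and miR-496a-5p share another. The 32 mature sequences of the 18 genes held 29 distinct seeds, so most of these genes have seeds of their own. The shared genes of the Sfmbt2 intron include Mir466m, Mir466l and Mir669h.

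The counts behind these genes are low, and they come from 75 nt paired-end reads of total RNA. The low-count filter could be passed through the wild-type libraries alone, so for some of these genes the fall may be fixed in part by it. Reads of a hairpin and of the transcript it is cut from cannot be told apart, near-identical hairpins may exchange reads, and no mature microRNA was measured. Summed over the 39 genes in the Sfmbt2 intron, the level was 10.2 and 10.2 CPM in wild type, 5.54 and 5.79 CPM with the knockout, 5.07 and 5.05 CPM with the mutant and 0.936 and 0.748 CPM with overexpression. Sfmbt2 itself, given above, was likewise lowest in overexpression. Summed over the 38 genes from Meg3 to Mirg, the level was 22.6 and 26.7 CPM in wild type, 16.7 and 16.9 CPM with the knockout, 17.9 and 21.3 CPM with the mutant and 3.01 and 3.42 CPM with overexpression. Rian, the long noncoding RNA between Meg3 and Mirg, stood at 354 and 392 CPM in wild-type cells, 323 and 319 in knockout, 333 and 323 in mutant and 48.5 and 51.8 in overexpression cells. Meg3 and Rian overlap other genes on the same strand, and Meg3 was called lower without being shared, since mutant replicate 1 was above wild-type replicate 1. At these 2 places overexpression carried most of the mean change, with medians of -3.66 and -3.09 against -0.842 and -0.562 in the knockout and -1.09 and -0.401 in the mutant. The 108 genes elsewhere summed to 306 and 321 CPM in wild type and to 242 to 409 CPM in the altered libraries, which overlap.

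**Figure D5:**
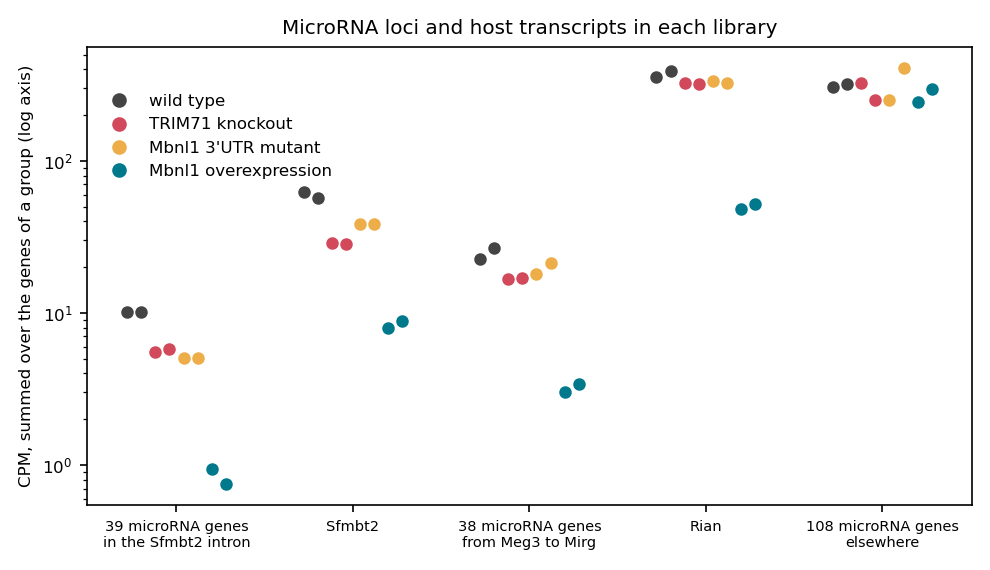
CPM in each library (log axis), summed over the microRNA genes of 3 places and for the host transcripts Sfmbt2 and Rian, coloured by group. In the Sfmbt2 intron and from Meg3 to Mirg the 6 altered libraries lie below both wild-type libraries and overexpression lies lowest, while elsewhere the groups overlap.

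Imprinted genes, expressed from the copy of one parent, were more often lower. Of 30 tested, 15 were called lower and 5 higher, beside 19.9% and 20.6% of all genes tested, with a median of -0.3. Of the 30, 9 were shared and lower against 4 higher, beside 8.44% and 9.02%. Shared and lower were Dlk1, Impact, Kcnq1ot1, Magel2, Mirg, Peg10, Phlda2, Rian and Snrpn, and shared and higher Igf2r, Mcts2, Mest and Slc22a18. Dlk1, a Notch-like growth regulator in the same imprinted domain as Meg3, stood at 2.496 and 2.68 CPM in wild-type cells, 1.35 and 1.02 in knockout, 1.48 and 1.69 in mutant and 0.602 and 0.829 in overexpression cells. It fell by 1.23 ± 0.13 (SE) on the log2 scale, with overexpression lowest. Igf2r, the receptor that clears IGF2, stood at 103 and 104 CPM in wild-type cells, 139 and 145 in knockout, 122 and 117 in mutant and 137 and 135 in overexpression cells and rose by 0.35 ± 0.03 (SE) on the log2 scale, adjusted p = 2.76e-07.

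Level and position bore on which genes were shared. Of 5338 genes tested with a mean under 1 CPM, 19.3% were called and 10.2% shared, against 52.6% and 22.6% of 3639 genes at 8 to 32 CPM. The 2-fold calls were the reverse: of 722 in all (4%), 396 of the 492 lower and 143 of the 230 higher genes were under 1 CPM, and keeping only genes with at least 1 CPM in 2 libraries left 265. Protein-coding genes were shared and higher in 10.7% and shared and lower in 8.77% of 14619, and long intergenic noncoding RNAs in 3.08% and 10.6% of 454. The share of tested genes that were shared and higher was 12.1% on chromosome 17, 11.9% on chromosome 2 and 11.4% on chromosome 8, against 9.02% of all genes tested. Chromosome 2 had a median change of 0.323 in overexpression, -0.0139 in the knockout and -0.00271 in the mutant, while the overexpression medians of chromosomes 17 and 8 were 0.0605 and 0.00293. On chromosome X, 12.1% of tested genes were shared and lower, beside 11.4% on chromosome 3, 11.2% on chromosome 12 and 8.44% of all genes. The median change on chromosome X was -0.192 in overexpression, 0.00189 in the knockout and -0.0256 in the mutant. Whether a chromosome-wide shift in overexpression accounts for part of the share on chromosome 2 or X was not tested.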

How the data were processed

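Per the labels' protocols, total RNA of 8 libraries was sequenced on a stranded protocol with 75 nt paired-end reads, and the submitters' processing notes name STAR 2.5.0 and the mm10 build. What the authors deposited is 1 unnormalized read count for each gene and library. Annotation release and strand setting: not given in the sources used here. Of 43346 genes listed, 42462 were matched to a symbol by identifier, 27979 had a count and 18055 were tested. No columns of other samples were present.

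The main test was edgeR 4.0.16 (R 4.3.3, limma 3.58.1): filterByExpr (minimum count 10, total 15), TMM scaling, and 1 robust quasi-likelihood fit of the 4 groups (residual degrees of freedom 4, biological coefficient of variation 4.172%). Contrasts were the mean of the 3 altered groups minus wild type, each line minus wild type, and an F test among the 3 lines. P-values were adjusted by Benjamini-Hochberg over all genes tested and called under 0.05. With 6 libraries against 2, the smallest two-sided p of an exact permutation test is 0.0714. Sides of wild type were read on log2 CPM with a prior count of 2. DESeq2 1.42.0, other scalings, filters and libraries or lines left out were alternatives. The older quasi-likelihood method, leaving out chromosome 2, and the microRNA count under every alternative were chosen after seeing the data.

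Between the libraries of a group, log-CPM correlated at 0.995 to 0.997 across genes, and between groups at 0.977 to 0.993. Replicate numbers come from the labels' titles or accession order and did not pair libraries: deviations of same-numbered libraries correlated at -0.259 to 0.323. On simulated data (10 sets, 18055 genes each) the contrast recovered 55.8% of the 500 genes changed 1.25-fold and 68.6% of those changed 1.5-fold. Recovery was 81.4% at 2-fold and 95.2% at 4-fold, and 122 of 1627 calls (7.5%) were false. The simulated lines had no difference among them, whereas 69.4% of all genes tested differed among the altered lines in the data. The recovery and the share of false calls therefore hold for equal changes in all lines and cannot be carried over to the calls made here.

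The members and the 29 gene lists were chosen with earlier results of these data known. The text names Trim71, Mbnl1, Mbnl2 and Mbnl3; the 12 highest and 12 lowest shared genes whose mean log2 CPM reached 1; the 12 per direction with the largest smallest line change; up to 4 called genes per list; and 6 genes in which a line goes against the mean, 139 in all. The 36 genes called with the altered libraries as 1 group, and further list members, were chosen after their values were seen. Some genes that fall under these choices are not reported here. Mbnl2 was called lower (-0.41 on the log2 scale) and Mbnl3 was not called (adjusted p = 0.16). Of the 29 lists, the general lists of splicing regulators (13 called higher, 9 lower of 46), microRNA pathway (2, 7 of 19), let-7 and TRIM71 targets (2, 9 of 24), immediate early genes (4, 11 of 29), glycolysis and hypoxia (11, 11 of 29), G1/S and replication (10, 5 of 31), adhesion (3, 9 of 22), neural (6, 9 of 22), trophoblast (2, 10 of 14), mesendoderm (0, 5 of 10), fibroblast (5, 3 of 14) and mitochondrially encoded genes (0, 1 of 10) are given only here. Beside these counts, 20.6% of all genes tested were called higher and 19.9% lower. No 2-cell-like gene was tested.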

Additional observations from a re-analysis of the deposited data

Results flagged for a closer look

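Of the 3151 shared genes, 2456 (77.9%) differed among the 3 altered lines in the F test of edgeR, beside 69.4% of all genes tested. Unequal movement was thus common in the shared genes and in the genes tested as a whole.

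For 17 of the named genes a line was called above wild type and another below it, and the lines differed in the F test. The named genes include 6 chosen because a line goes against the mean, so the 17 depend in part on that choice. Each is given with the log2 distance between its highest and lowest line. Higher in the knockout and lower in the mutant and overexpression were Itpr2 (5.82), Foxa2 (4.88), Igf2 (4.30), Nkx2-9 (3.75), Tagln (2.89), Esrp1 (2.74) and Ifitm1 (0.99). Slc4a5 (4.59) was higher in the knockout and lower in the mutant, and Id2 (2.49) and Ccnd2 (2.23) were higher in the knockout and lower in overexpression. Higher in the mutant and lower in the knockout and overexpression were Gata4 (4.09), Gata6 (4.04) and Ndrg1 (1.21), and Trim71 (2.75) was higher in the mutant and lower in the knockout. Axin2 (1.34) was higher in the mutant and overexpression and lower in the knockout, Tcf7 (0.91) higher in the knockout and overexpression and lower in the mutant, and Pof1b (4.76) higher in the knockout and mutant and lower in overexpression. Groups of 2 libraries allow no search for single libraries that stand apart.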

How the results depend on the processing

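With the altered libraries as 1 group, 36 genes were called in place of 7299, 19 of them at 2-fold in place of 722, and all 36 were shared. In that fit Foxa2 (0.89, adjusted p = 0.801), Itpr2 (1.19, adjusted p = 0.769) and Igf2 (0.32, adjusted p = 0.918) changed sign, since it weighs libraries by count, and 8 of 139 named genes kept their direction and side of the threshold. Without the mutant 1238 genes were called at 2-fold, 7536 had all libraries on one side and 6721 were shared. Without overexpression 413 were called at 2-fold, and without the knockout 5706 had all libraries on one side. These counts rest on fewer libraries. Keeping genes with at least 1 CPM in 2 libraries left 265 at 2-fold and gave 5 shared microRNA genes, and asking for a gap of 0.25 left 645 genes on one side. Leaving out 1 library gave 5225 to 7749 called genes, 607 to 786 at 2-fold, 3113 to 3958 shared, 11155 to 12651 differing among lines, and 3780 to 6060 with all libraries on one side, where 5721 were without wild-type replicate 1 and 6060 without wild-type replicate 2. DESeq2 called 5975, scaling by library size 7230 (4005 higher, 3225 lower), and leaving out chromosome 2 gave 6578 and 19 shared microRNA genes. With the replicate block 7104 genes were called, 725 at 2-fold, 3104 were shared and 12382 differed among lines. Shared microRNA genes were 27 without overexpression and 0 with 1 altered group. Of 2224 values of named genes, 2074 kept direction and call. Outside the 1-group fit, calls were lost for Cubn, Foxa2, Tcf7, mt-Nd4, Axin2, Slc4a5 and Rps27a. Of these, Foxa2 (0.296) and Axin2 (0.201) depended on wild-type replicates 1 and 2 respectively, as adjusted p without that library. Low counts limit the genes under 1 CPM.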

Other observations

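Some shared genes outside the lists above had like changes in the 3 lines at moderate levels, and they were picked after their values were seen. Gsn was described above. Rgs22 stood at 1.57 CPM in wild type and 2.68, 2.77 and 2.92 CPM in the knockout, the mutant and overexpression as group means. Cryab, a small heat shock protein, stood at 2.76, 4.35, 4.26 and 4.69 CPM in the same order, and Ppp1r9b at 38.2, 50.8, 50.5 and 50.8 CPM. Sfrp2, a secreted Wnt antagonist, stood at 4.86, 2.57, 3.37 and 3.04 CPM, and Col13a1, a transmembrane collagen, at 15.5, 11.6, 11.2 and 11.1 CPM. These 5 were taken from the shared genes that the F test among lines had not called, so that outcome was set by the choice. Their adjusted p in it ran from 0.0719 for Sfrp2 to 0.984 for Ppp1r9b. The knockout against the mutant was called for Sfrp2 (adjusted p = 0.04).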
